A study of Mus musculus with 6 samples.

Results

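Acid secretion by the parietal cell of the gastric corpus was examined in cultured mouse epithelium through 10 genes of the proton pump and the ion transport around it: Atp4a, Atp4b, Kcnq1, Kcne2, Kcne3, Kcnj15, Slc26a9, Slc9a4, Clic6 and Esrrg. Every non-control probe of the microarray that carries 1 of these names was taken, which gave 14 probes among 55681, and 10 gene names among 34298. Kcnq1, Kcne3, Kcnj15 and Esrrg had 2 probes each, and the other 6 genes had 1. The arrays were 6 single-colour Agilent mouse arrays of organoids at passage 0, 3 of stomach and 3 of esophagus. Their labels carry the mouse numbers 1, 2 and 4 in both tissues, read here as the same mice. The culture time was 8 days on 5 arrays and 7 days on the stomach array of mouse 4.

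Stomach organoids were grown from glands of the corpus in a medium with WNT3A- and R-spondin1-conditioned medium and gastrin. Esophagus organoids were grown from the squamous epithelium without WNT3A, R-spondin1 or gastrin and with forskolin. Both media held EGF, noggin, FGF-10, a TGF-β receptor kinase inhibitor, a ROCK inhibitor, nicotinamide, N-acetylcysteine and the B27 and N2 supplements. Every label reads Control, so no treatment separated the groups. The labels give no genotype, strain, sex or age. The methods describe wild-type female mice and also Cre reporter strains, and wild-type is assumed here. Tissue and medium therefore cannot be told apart in any value below. Because each array holds the RNA of a whole culture, fewer cells of a type and less RNA per cell cannot be told apart either.

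The parietal cell secretes acid through the gastric H+/K+-ATPase, a heterodimer of the catalytic subunit Atp4a and the glycosylated subunit Atp4b. The pump exchanges cytosolic protons for luminal potassium, so that it needs an apical potassium channel to return potassium to the lumen and an apical path for chloride. The channel is formed by Kcnq1 with the accessory subunit Kcne2, and Kcnj15 is a further potassium channel of the same cell. Slc26a9 carries chloride, Slc9a4 is a basolateral sodium-proton exchanger, Clic6 belongs to the chloride intracellular channel family and Esrrg is an orphan nuclear receptor of the estrogen-related group. Kcne3 is another accessory subunit of Kcnq1, best known from colon and airway epithelium.

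The 60-base probes below are shown as examples of what the array reads for the pump and for the channel. The Atp4a probe reads the catalytic pump subunit and the Kcne3 probe an accessory channel subunit. Positions are those of the array annotation in mm9, both on the plus strand, and neither sequence holds a part set in capitals.
Atp4a, chr7:31509268-31509327: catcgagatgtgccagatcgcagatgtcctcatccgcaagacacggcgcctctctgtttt
Kcne3, chr7:107332867-107332926: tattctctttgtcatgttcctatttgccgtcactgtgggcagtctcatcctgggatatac
The other 12 probes lie at chr8:13386212-13386271 (Atp4b, minus strand), chr7:150612887-150612946 and chr7:150612896-150612955 (Kcnq1), chr16:92298236-92298295 (Kcne2), chr7:107333062-107333121 (Kcne3), chr16:95519395-95519454 and chr16:95521158-95521217 (Kcnj15), chr1:133666246-133666305 (Slc26a9), chr1:40687517-40687576 (Slc9a4), chr16:92541363-92541422 (Clic6), and chr1:190038192-190038251 and chr1:190038384-190038443 (Esrrg). The 2 Kcnq1 probes share 51 of their 60 bases, so they are not independent readings of the gene.

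All values below are log2 intensities from the authors' normalized table unless a raw intensity is named. Differences are esophagus minus stomach, with a negative sign for a gene higher in stomach, and were tested with limma over all 55681 probes with Benjamini-Hochberg adjustment at 0.05. A probe was counted as above background on an array when the scanner software marked its spot as well above the local background. A fold given as at least a value belongs to a probe with no spot above background in the dim tissue. It allows for that background but not for the spread over arrays, and is no confidence limit. Levels of single probes are not ranked against each other, since probes differ in brightness. A summed level adds the linear intensities of the brightest probe of each gene in a list. Bright probes weigh most in it, and such sums are compared between arrays only.

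Of the 14 probes, 11 were higher in stomach organoids, for 8 of the 10 genes, and 0 were higher in esophagus organoids by limma, also at an unadjusted p under 0.05. Without the stomach array of mouse 2 the counts higher in stomach were 8 probes and 5 genes. Across the whole array 6.22% of probes were higher in stomach and 5.94% in esophagus. For 13 of the 14 probes all 3 stomach arrays lay above all 3 esophagus arrays, compared with 13.4% of all probes measured on the 6 arrays. The median difference over the 14 probes was -3.21, against 0.02 over all probes. With 3 arrays a tissue the exact two-sided permutation test on a single probe cannot go below p = 0.1, and these 13 probes had that value. The subunits of the pump itself were at or near background, while Kcnq1, Kcne3, Slc9a4 and Clic6 had differences from -6.48 to -8.52. Of all calls on the array 51.2% were higher in stomach, and 67.5% were when the processed scanner signal was scaled to spots detected on all arrays. Scaling the processed signal over all spots moved the median difference of all probes from 0.02 to 0.19, and the members again had 11 calls on that scale, with the dimmer Kcnj15 probe added and Slc26a9 lost.

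**Figure D1:**
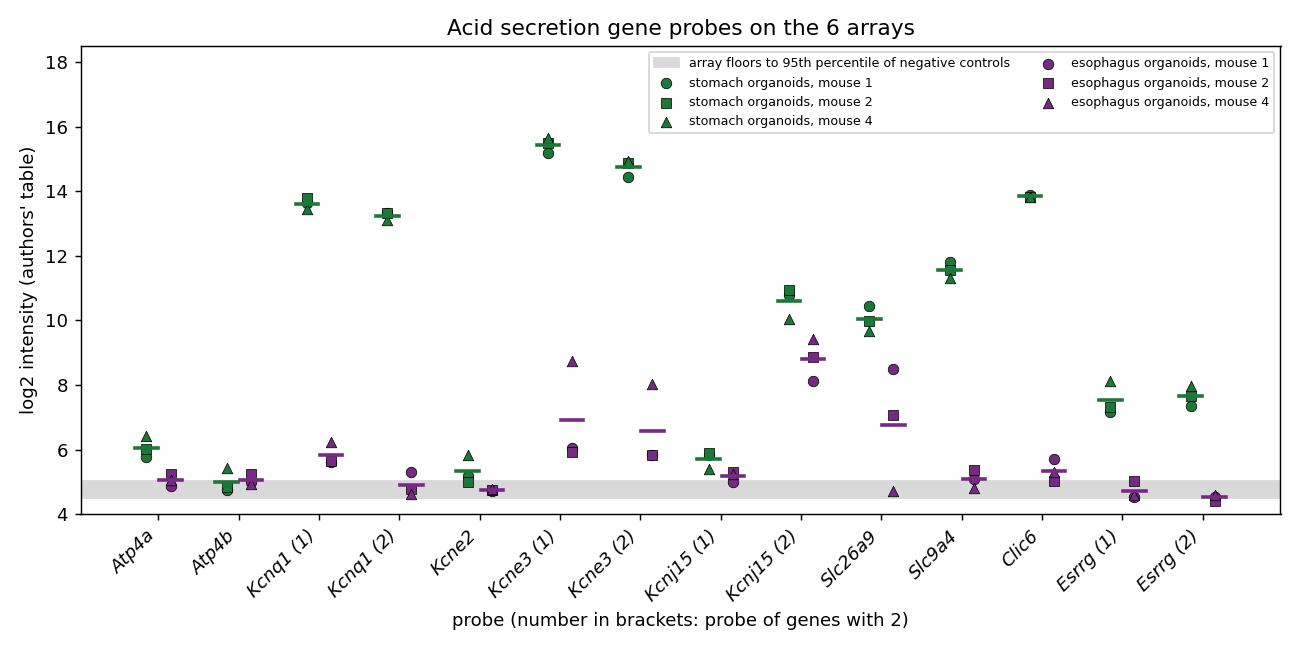
Log2 intensity (y axis) of the 14 probes (x axis) on each of the 6 arrays. Green marks are stomach and purple marks esophagus organoids, marker shapes are mice, short lines are group means and the grey band runs from the lowest array floor (4.49) to the highest 95th percentile of the negative control spots (5.04). Kcnq1, Kcne3, Slc9a4 and Clic6 stand far above the band in stomach, whereas Atp4b and Kcne2 lie in it or just above it in both tissues.

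The question of which members stayed at background in stomach organoids had 1 answer by the scanner's mark. Atp4b was well above background on 0 of the 3 stomach arrays and on 0 of the 3 esophagus arrays. Its values were 4.75, 4.85 and 5.42 in stomach organoids of mice 1, 2 and 4 and 4.99, 5.25 and 4.93 in esophagus organoids, and the groups overlapped. Its raw median intensities in stomach were 26, 25 and 47, over local backgrounds of 21, 19 and 20. The difference of 0.05 (SE 0.21, adjusted p = 0.928) had a 95% interval from -0.44 to 0.54.

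Kcne2, the subunit that pairs with Kcnq1 in the parietal cell, was above background on 1 stomach array, that of mouse 4, and on 0 esophagus arrays. The stomach values were 5.17, 4.99 and 5.84 and the esophagus values 4.71, 4.76 and 4.77. All stomach values were the higher ones, yet the difference of -0.59 (SE 0.23) did not pass the test (adjusted p = 0.162, unadjusted p = 0.0335). Without the stomach array of mouse 4, both Atp4b and Kcne2 were at background on every stomach array left.

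Atp4a, the catalytic subunit, was above background on all 3 stomach arrays but only just. Its raw median intensities there were 56, 45 and 103 over local backgrounds of 20, 17 and 18, and those in esophagus were 38, 47 and 34 with no spot above background. The log2 values were 5.76, 6.01 and 6.42 in stomach and 4.88, 5.25 and 5.07 in esophagus organoids. The groups did not overlap, and Atp4a was higher in stomach by at least 1.99-fold (difference -0.99, SE 0.21, adjusted p = 0.0177). Without the stomach array of mouse 2 the difference was -1.02 and the adjusted p 0.0652, and with the processed scanner signal scaled to the 75th percentile it was -3.22 (adjusted p = 0.000231). It was smaller without the stomach array of mouse 4, at -0.82, and with an offset of 50, at -0.61.

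Another background mark gives another count. Against the 95th percentile of the 308 negative control spots of each array, which lay between 4.85 and 5.04, 0 of the 14 probes were at background on all 3 stomach arrays, because the Atp4b value of mouse 4 lay above it. In stomach organoids 12 of the 14 probes were well above background on all 3 arrays, and in esophagus organoids 4 were on all 3 and 9 on none.

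The Kcnq1 channel gene was bright in stomach organoids. One probe read 13.63, 13.78 and 13.44 in stomach and 5.63, 5.65 and 6.22 in esophagus, where it was still above background on all 3 arrays. The difference was -7.78 (SE 0.20, adjusted p = 3.69e-07). The other probe, shifted by 9 bases, read 13.31, 13.32 and 13.10 in stomach and 5.29, 4.78 and 4.63 in esophagus. It was above background on 0 esophagus arrays, which makes its difference a bound of at least 326-fold (adjusted p = 2.53e-07).

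Kcne3 showed differences of the same order as Kcnq1. The probe printed above read 14.45, 14.88 and 14.94 in stomach and 5.84, 5.84 and 8.02 in esophagus organoids, a difference of -8.19 (SE 0.55, adjusted p = 5.18e-05). The second probe read 15.18, 15.48 and 15.65 in stomach and 6.06, 5.94 and 8.75 in esophagus (difference -8.52, SE 0.68, adjusted p = 0.000131). In both probes the esophagus array of mouse 4 stood above the other esophagus arrays by over 2 log2 units, and far below every stomach array. That array was alone on its slide, and without it, which is also the value within the slide of the other 5 arrays, the differences were -8.92 and -9.44. Of the 4 pit cell markers, Tff1 was above background on 1 esophagus array and the other 3 on none. Their summed level was 150, 127 and 125 on the esophagus arrays of mice 1, 2 and 4. The mucous neck and chief cell markers summed to 245, 232 and 210. Of these Gkn3 was above background on all 3 esophagus arrays and the others on none. Both sums consist mostly of values at background, so they cannot rank the esophagus arrays. Summed levels of other lists on the 3 esophagus arrays were 6770, 8304 and 8396 for the basolateral and cytosolic genes, 380, 426 and 528 for the other apical transport genes, and 6228, 3447 and 5823 for the 5 columnar markers. The list of traffic and the apical cytoskeleton was lowest on the array of mouse 4, at 77371, 64272 and 56298. The part of other cells in the Kcne3 values of that array was not tested.

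Kcnj15, an inward rectifier, was read by probes that gave unlike values. One lay at 10.79, 10.95 and 10.05 in stomach and 8.12, 8.87 and 9.42 in esophagus organoids, above background on all 6 arrays. It was higher in stomach, with a difference of -1.79 on the log2 scale (SE 0.36, adjusted p = 0.0160), and lost the call without the stomach array of mouse 1 (adjusted p = 0.0780), the stomach array of mouse 2 (0.0773) or the esophagus array of mouse 2 (0.0502). The other probe, 5.85, 5.89 and 5.39 in stomach and 4.997, 5.29 and 5.25 in esophagus, was above background on the 3 stomach arrays alone. Its difference of -0.53 (SE 0.19) did not pass (adjusted p = 0.126), but without the stomach array of mouse 4 it was -0.69 (adjusted p = 0.0425), and on the percentile-scaled processed signal -2.06 (adjusted p = 0.0189).

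Slc26a9, the apical chloride carrier, varied most among the esophagus arrays. Stomach values were 10.45, 9.99 and 9.67 and esophagus values 8.50, 7.07 and 4.71, with the last of these at background. The groups did not overlap, and the difference was -3.27 (SE 0.82, adjusted p = 0.0400). This call was lost when any 1 stomach array was left out, with adjusted p = 0.152, 0.131 and 0.0661 without mice 1, 2 and 4, and without the esophagus array of mouse 2 (0.0911). It was also lost in 4 other settings. Without the esophagus array of mouse 4 the difference was -2.25 (adjusted p = 0.0159), and without that of mouse 1 it was -4.14 (adjusted p = 0.00593).

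Cd68, the macrophage gene of the stroma and immune list, followed the same order across the esophagus arrays, with 14.77, 12.94 and 11.80 for mice 1, 2 and 4. On the stomach arrays it ran the other way from Slc26a9, with 11.04, 11.22 and 12.36. The summed level of that list ran from 3738 to 28175 over the esophagus arrays and from 2282 to 5407 over the stomach arrays. Its 5 genes other than Cd68 did not follow the order of Cd68. They summed to 143, 179 and 171 on the esophagus arrays of mice 1, 2 and 4, and to 183, 177 and 147 on the stomach arrays. Of the 6 genes of the list, Cd68 was the one above background on all arrays, and Ptprc and Myh11 were above background on none. Limma's test between tissues was passed by 0 of them, 0 also at an unadjusted p under 0.05. With the slide as a block, which leaves the esophagus array of mouse 4 without weight, 1 was higher in esophagus. The part of such cells in the Slc26a9 values was not tested.

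Slc9a4, the sodium-proton exchanger, read 11.81, 11.57 and 11.31 in stomach and 5.08, 5.37 and 4.80 in esophagus organoids. It was above background on 0 esophagus arrays and higher in stomach by at least 89.1-fold (difference -6.48, SE 0.20, adjusted p = 8.08e-07). Clic6 gave the closest stomach replicates of the 14 probes, 13.90, 13.81 and 13.81, against 5.72, 5.02 and 5.30 in esophagus with no spot above background. The bound was at least 360.4-fold (difference -8.49, SE 0.20, adjusted p = 2.13e-07).

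Esrrg, the nuclear receptor of the set, was of moderate intensity in stomach and at background in esophagus by both probes. The first read 7.18, 7.32 and 8.14 in stomach and 4.55, 5.02 and 4.59 in esophagus, at least 6.995-fold higher in stomach (difference -2.83, SE 0.27, adjusted p = 0.000387). The second read 7.35, 7.66 and 7.97 in stomach and 4.55, 4.42 and 4.59 in esophagus, at least 8.22-fold higher (difference -3.14, SE 0.19, adjusted p = 2.53e-05). On the percentile-scaled processed signal the differences were -5.52 and -5.62, and on the scanner intensities with an offset of 50 they were -1.88 and -1.98, so the bounds hold on the authors' scale only.

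**Figure D2:**
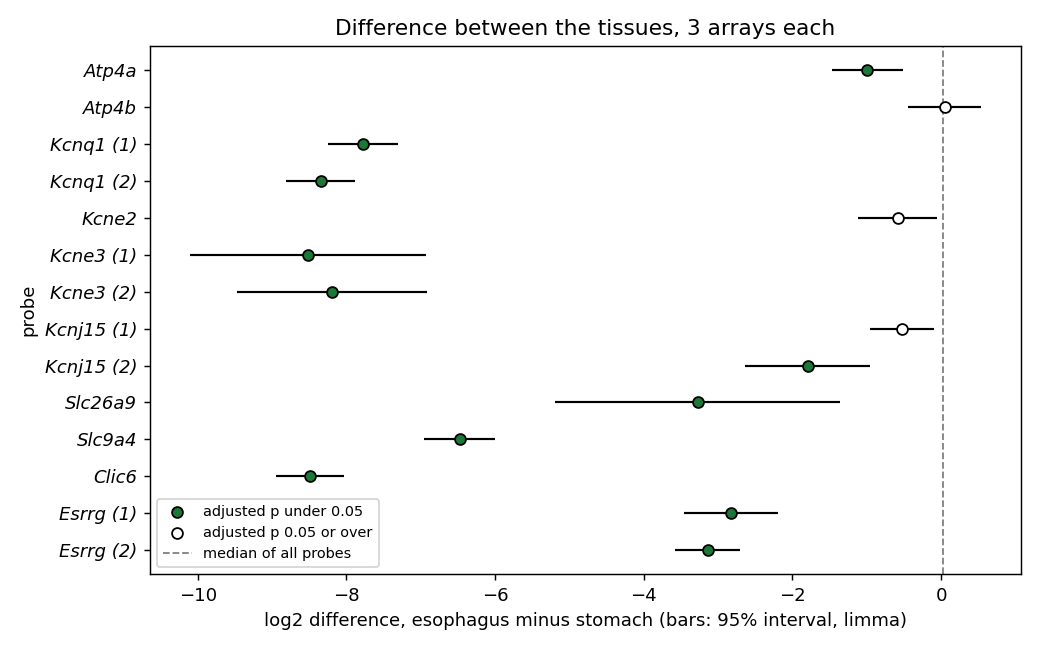
Log2 difference, esophagus minus stomach (x axis), of each of the 14 probes (y axis) with its 95% interval from limma. Filled points passed an adjusted p of 0.05, and the dashed line is the median of all probes (0.02). The filled points run from -0.99 (Atp4a) to -8.52 (Kcne3), and the 3 open ones are Atp4b, Kcne2 and a probe of Kcnj15.

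The stomach array of mouse 4, harvested 1 day before the others, was the highest of its group in 7 probes and the lowest in the other 7. It was highest for Atp4a, Atp4b, Kcne2 and both probes of Kcne3 and Esrrg, and lowest for Kcnq1, Kcnj15, Slc26a9, Slc9a4 and Clic6. On the same array the summed endocrine and tuft cell markers were at 401, against 266 and 235 on the other stomach arrays. Of these genes Ghrl was above background on 3 stomach arrays, Chga and Sst on 1 each, and Gast, Hdc, Dclk1 and Trpm5 on none. The stroma and immune markers were at 5407, against 2282 and 2565, most of it Cd68, and the 5 others summed to 147, against 183 and 177. The mucous neck and chief cell markers were lower there, at 285406 against 369855 and 388131, as were the pit cell markers, at 361067 against 446128 and 399130. The 5 squamous markers summed to 1717, against 2820 and 3364, and the 4 other than Trp63 to 199, against 143 and 132. The part of harvest day or cell makeup in these values was not tested, and a single array allows no test.

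**Figure D3:**
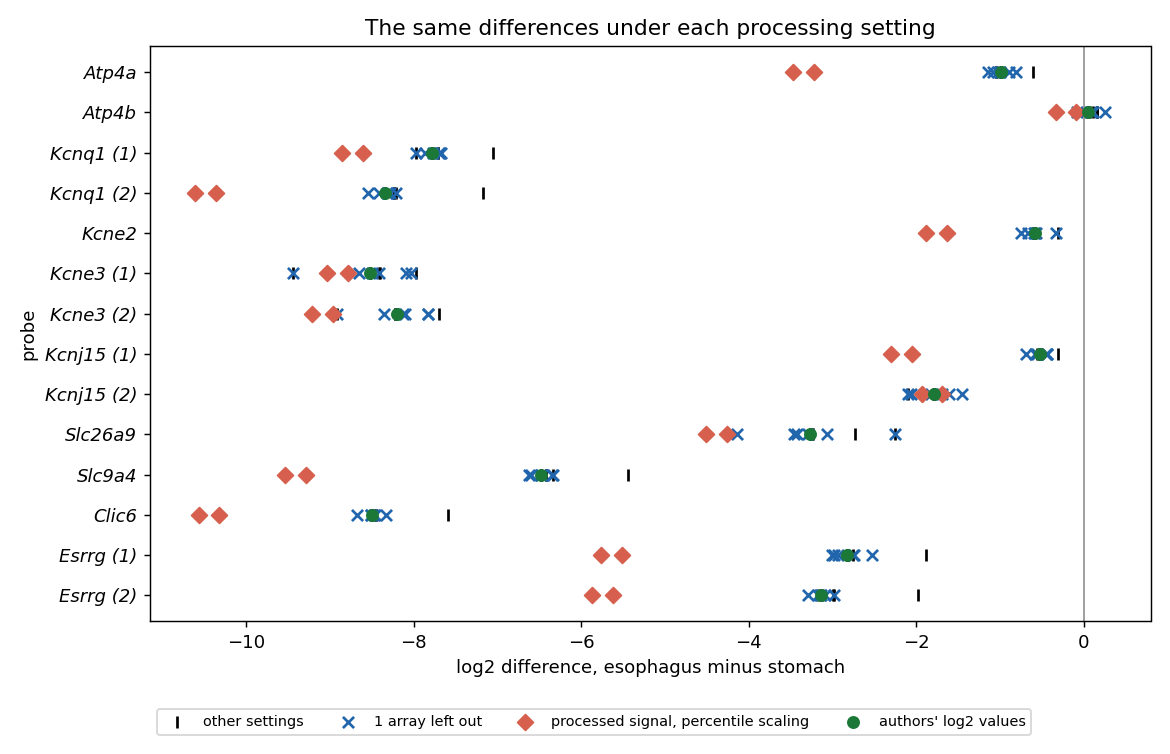
The differences of the 14 probes (y axis, labelled as in the plot of intervals) on the log2 scale, esophagus minus stomach (x axis), under every setting tried. Green points are the authors' values, blue crosses leave out 1 array, red diamonds use the percentile-scaled processed signal and black bars are the other settings. On the processed signal Slc9a4 lay at -9.28 and -9.53, against -6.48 on the authors' values, and Atp4a at -3.22 and -3.47, against -0.99, while with an offset of 50 they lay at -5.44 and -0.61.

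Esrrg binds DNA at an extended form of the nuclear receptor half-site AGGTCA and depends on coactivators, of which Ppargc1a is the best known in tissues rich in mitochondria. Among the 3 coregulators listed, Ppargc1a was higher in stomach, with values of 11.19, 10.83 and 10.99 against 5.25, 4.72 and 4.99 in esophagus, where no spot was above background. The bound was at least 64.7-fold (difference -6.02, adjusted p = 7.63e-07), and its dimmer second probe was also higher in stomach (difference -2.21, adjusted p = 0.000156). Nrip1, a corepressor, was higher in esophagus by 1.14 (adjusted p = 0.0127), and Ppargc1b did not pass (difference 0.07, adjusted p = 0.942). The number of coregulators called higher in esophagus fell from 1 to 0 without the stomach array of mouse 1 or of mouse 2, and when the processed signal was scaled to detected spots. Of the related receptors, Esrra had means of 13.38 in stomach and 13.33 in esophagus and did not pass, and Esrrb was above background on no array. By the brightest probe of each gene, 7.71% of all genes were higher in stomach and 7.15% in esophagus.

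The promoters of Atp4a and Slc26a9 are shown because both genes were called and their RefSeq entries differ in the letters searched for. RefSeq promoter entries on GRCm38.p6 were found for 6 of the 10 genes, 11 entries in all. Only the 250 bases before the annotated start were searched, on both strands, for the half-site AGGTCA, the GATA factor motif AGATAA and the box TATAAA. Capitals mark matches or their reverse complements, and no 2 different motifs overlapped.
Atp4a, chr7:30711959-30712208, plus strand: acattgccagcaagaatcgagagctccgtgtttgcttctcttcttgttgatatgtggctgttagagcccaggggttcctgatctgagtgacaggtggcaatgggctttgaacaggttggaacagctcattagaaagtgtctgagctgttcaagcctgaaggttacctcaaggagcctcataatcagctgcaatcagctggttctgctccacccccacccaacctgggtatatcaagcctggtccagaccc
Slc26a9, chr1:131743772-131744021, plus strand: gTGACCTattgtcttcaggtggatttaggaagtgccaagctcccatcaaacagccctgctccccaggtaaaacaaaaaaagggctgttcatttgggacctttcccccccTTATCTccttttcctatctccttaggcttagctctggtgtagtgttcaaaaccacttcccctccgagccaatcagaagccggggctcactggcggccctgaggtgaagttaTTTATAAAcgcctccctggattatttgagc
The Slc26a9 window held all 3 motifs, among them AGGTCA in reverse complement at 249 to 244 bases before the start and TATAAA on both strands between 30 and 23 bases before it. The Atp4a window held none of the 3. AGGTCA was found in 1 of the 11 member windows and in 14% of the 32851 promoter windows, AGATAA in 1 and in 9.99%, and TATAAA in 2 and in 12.4%. A match describes letters and is not a measured binding site.

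The list of receptors and messengers that act on acid secretion holds activating and inhibiting receptors and Gnas, which encodes a G protein subunit. Over the array 7.71% of genes were higher in stomach and 7.15% in esophagus. Of the 7 genes of the list, 2 were higher in stomach by limma and 5 did not pass. In esophagus 0 were higher, 0 also at an unadjusted p under 0.05. The median difference was -0.18, against 0.03 over all genes. Gnas did not pass by its brightest probe, while 1 of its dimmer probes was higher in stomach (difference -1.41, adjusted p = 0.00184). Its remaining probes did not pass. Chrm3, the muscarinic receptor of the parietal cell, read 6.05, 6.53 and 6.07 in stomach and was at background in esophagus (at least 2.98-fold, adjusted p = 0.000720). Ptger3, a prostaglandin receptor that inhibits acid secretion, read 6.41, 6.39 and 5.66 (at least 2.68-fold, adjusted p = 0.00613), and its other probe did not pass (difference -0.39). Hrh2, the histamine receptor, was above background on no array, with 4.75, 4.92 and 4.78 in stomach, and the same held for the calcium-sensing receptor Casr. Cckbr, the receptor for the gastrin that only the stomach medium contained, was above background on 1 array of each tissue and had means of 5.13 in stomach and 5.33 in esophagus (adjusted p = 0.697).

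Genes that supply bicarbonate, water and ions at the basolateral side and in the cytosol were higher in stomach in 4 of the 6 cases reported here, with 0 higher in esophagus by limma, at an unadjusted p under 0.05 too, and a median difference of -3.43. Over all genes 7.71% were higher in stomach and 7.15% in esophagus. Atp1b1, a subunit of the sodium pump, read 15.49, 15.64 and 15.58 in stomach and 8.05, 7.98 and 7.80 in esophagus (difference -7.62, adjusted p = 8.90e-08). Car2, the carbonic anhydrase, differed by -5.46 (adjusted p = 8.44e-06) and the water channel Aqp4 by -5.12 (adjusted p = 2.17e-05). Slc12a2, a chloride-importing cotransporter, was higher in stomach by a smaller amount (difference -1.74, adjusted p = 0.00326). The anion exchanger Slc4a2 did not pass, at -0.52. Slc26a7, an anion exchanger of the parietal cell, was above background on no array, as the pump subunit Atp4b was.

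Of the 3 other apical transport genes, the potassium-chloride cotransporter Slc12a7 (difference -3.28, adjusted p = 4.56e-05) and the chloride channel Cftr (difference -1.80, adjusted p = 0.000139) were higher in stomach, and Kcnj10 did not pass. The dimmer probes of Slc12a7 and Cftr did not pass (differences -0.48 and 0.12), and that of Cftr was above background on no array. The pump is held in tubulovesicles and moved to the apical membrane on stimulation. Of 11 genes of that traffic and the apical cytoskeleton, 3 were higher in stomach by limma (5 at an unadjusted p under 0.05) and 0 in esophagus (2 unadjusted). The other 8 did not pass, and the median was -0.49. The shares over all genes were 7.71% and 7.15%. On the percentile-scaled processed signal 1 was higher in stomach and 1 in esophagus. The 3 were Lasp1, an actin-binding protein (difference -2.03, adjusted p = 0.000269), ezrin, encoded by Ezr (-1.13, adjusted p = 0.0114), and the vesicle SNARE Vamp2 (-0.98, adjusted p = 0.00496). Rab11a and Rab25, small GTPases of recycling vesicles, had differences of 1.17 and 0.56 that did not pass. Vamp8 and Myo5b, at -0.51 and -1.39, did not pass either, while a dimmer Myo5b probe was higher in stomach (-1.51, adjusted p = 0.0101). The dimmer Vamp2 probe did not pass (difference -0.003, adjusted p = 0.993). Nor did a dimmer Lasp1 probe (-0.15), while its others were higher in stomach.

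**Figure D4:**
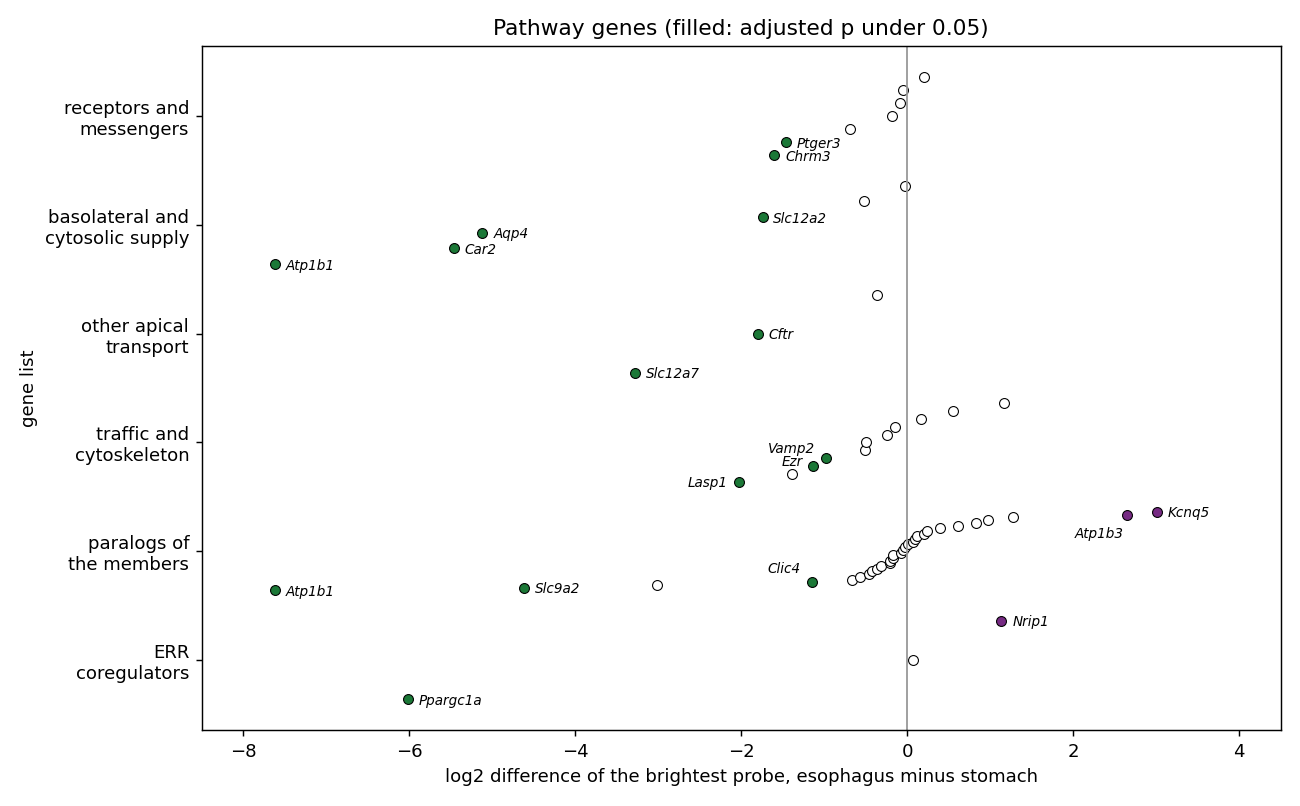
Log2 difference, esophagus minus stomach (x axis), of the brightest probe of each gene in 6 lists (y axis), with points spread vertically within a list for legibility. Filled green points were higher in stomach and filled purple points higher in esophagus at an adjusted p of 0.05, and open points did not pass. The lists span from -7.62 (Atp1b1, which is in 2 lists) to 3.01 (Kcnq5).

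Of the 30 paralogs of the members reported here 3 were higher in stomach, 2 in esophagus and 25 did not pass, with a median of -0.07, and 14 were above background on no stomach array. These counts are near the background shares of 7.71% and 7.15% of all genes. Slc9a2, another sodium-proton exchanger of the Slc9a4 family, read 9.36, 9.51 and 9.16 in stomach and was at background in esophagus (at least 24.3-fold, adjusted p = 2.13e-06). Kcnq5, a channel of the Kcnq1 family, was the other way round at 4.80, 4.71 and 5.50 in stomach and 7.86, 8.01 and 8.18 in esophagus (difference 3.01, adjusted p = 0.000105), and its 2 other probes did not pass (0.05 and 0.60). Subunits of the sodium pump, which are related to Atp4b, also went both ways, with Atp1b1 higher in stomach and Atp1b3 higher in esophagus by 2.65 (adjusted p = 2.96e-05). The Kcne relatives Kcne1, Kcne4 and Kcne1l were above background on no array, and of the 5 Kcne genes looked at Kcne3 was the one above background on all 3 stomach arrays. The non-gastric proton pump Atp12a was above background on no array.

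Genes within 100 kb of a member, by probe position in mm9, gave 7 higher in stomach and 4 higher in esophagus among 38, where 7.71% and 7.15% of all genes were. Around Atp4a lie the epidermal differentiation genes Sbsn, Dmkn and Krtdap, which were higher in esophagus, Sbsn and Dmkn by 4.98 and 8.18 on the log2 scale and Krtdap by at least 4232-fold, while 2200002J24Rik on the other side was at least 7.12-fold higher in stomach. Near Slc26a9, Ctse, which encodes the gastric protease cathepsin E, was at least 980.3-fold higher in stomach (adjusted p = 1.11e-07), and Rab7b was higher in esophagus by 4.76 (adjusted p = 3.34e-05). Next to Clic6, neither 2410124H12Rik nor Runx1 passed (differences -0.23 and 0.29). Of the 5 neighbours of Kcne2, which include Kcne1 and Rcan1, 0 passed limma's test and 0 had an unadjusted p under 0.05. The other calls were Tmco3, Slc22a18, Lipt2, Pgm2l1 and Pm20d1, all higher in stomach.

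The labelled tissues carried their markers, where 7.71% of all genes were higher in stomach and 7.15% in esophagus. All 4 pit cell markers and 5 of 6 mucous neck and chief cell markers were higher in stomach, among them Gif, which in the mouse is made by chief cells (at least 341-fold), and Lipf was above background on no array. Columnar markers were higher in stomach in 4 of 5 cases and squamous markers higher in esophagus in 4 of 5. The exception was Trp63, whose brightest probe was higher in stomach (difference -1.22) and whose 3 other probes were higher in esophagus and above background on no stomach array. The call of the brightest probe was lost with an offset of 50, on both scalings of the processed signal, and without the stomach array of mouse 1 or 2 or the esophagus array of mouse 1 or 2. Of 7 endocrine and tuft cell markers 0 passed by limma and 0 had an unadjusted p under 0.05, and 4 of them, Gast, Hdc, Dclk1 and Trpm5, were above background on no stomach array. Between 45.5% and 51.1% of non-control spots per array were well above background and 0 spots were saturated.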

How the data were processed

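RNA from 3 stomach and 3 esophagus organoid cultures of mice 1, 2 and 4 was measured on single-colour Agilent mouse arrays. Scans were read in Agilent Feature Extraction 11.5.1.1, whose deposited files give raw and background-subtracted intensity values per spot with no scaling between arrays. The main values are the authors' deposited log2 table, which they corrected for background and quantile normalized. Repeating this from the median intensities (normexp, offset 15) gave the table to within a median of 0.00433, and spots marked as outliers, 2029 in all, are blank in it.

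On these log2 values, lmFit and eBayes (limma 3.58.1, R 4.3.3) compared the tissues over the 6 arrays with no block, and p-values were adjusted over 55681 probes by Benjamini-Hochberg. Empty spots were left out of a probe's mean. Where a probe was above background on no array of a tissue, a fold is the bright mean against the higher of the dim value and the lowest signal well above background on each array (4.49 to 4.66). The number of arrays limits precision. The p-values rest on the spread among the 3 arrays of a tissue, with variances moderated over all probes. Spread between mice, cultures and arrays cannot be told apart. The labels give the same mouse numbers in both tissues. Deviations of arrays with the same number correlated with r = 0.025, 0.012 and -0.0079, and those with different numbers with r from -0.073 to 0.04.

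Members and lists were chosen with earlier results of these data known. All member probes are named. From other lists, called genes may be named, with values for those of smallest p. Genes at background and genes that did not pass were named after their values were seen. All 93 list entries used matched a gene name of the array, and 2 further genes of the lists are not reported here and are left out of the counts.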

Additional observations from a re-analysis of the deposited data

How the results depend on the processing

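Each member probe was recomputed under up to 17 alternatives, 236 values in all, of which 214 kept their direction and side of the threshold. Kcnq1, Kcne3, Slc9a4, Clic6 and Esrrg kept their calls in all of them. Slc26a9 lost its call in 8, among them the offset of 50 (adjusted p = 0.0638), the processed signal scaled over all spots (0.0830) or over detected spots (0.0952, an alternative chosen after seeing the data), and trended robust variances (0.108). Atp4a lost its call without the stomach array of mouse 2 and at a minimum of 2-fold, where its difference was -0.99. Kcne2 passed under the methods' rule of an unadjusted p and 1.5-fold. Atp4b changed sign on the processed signal, to -0.0901 and -0.338, and lay between -0.0802 and 0.252 when 1 array was left out, with no call in any setting. With an offset of 50, bounded differences shrank, for Kcnq1's second probe to -7.17, Slc9a4 to -5.44 and Clic6 to -7.59. The cause of these changes was not tested.

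With 1 array left out, member probes higher in stomach numbered 8 to 11 and member genes 5 to 8, with 5 genes without the stomach array of mouse 2. Member probes at background on the stomach arrays left numbered 1 to 2. Over all 3 stomach arrays the count was 0 against the negative control percentile. Pathway genes higher in esophagus numbered 3 by the main setting, 5 with the slide as a block, and 2 to 5 with 1 array left out. The paired analysis, with the mouse as a replicate block, gave 11 member probes and changed no member call, and 15 pathway genes higher in stomach against 14. The slide block rests on the same 5 arrays as leaving out the esophagus array of mouse 4. Signal over background limits Atp4b, Kcne2 and the dimmer Kcnj15 probe.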
